A study of Mus musculus with 6 samples.

Results

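The genes described here encode structural and adaptor proteins of focal adhesions and their links to actin. They were chosen as a list of 36 symbols, of which 35 had at least 1 probe set on the arrays under that symbol, and Pak1 was not analysed here. The 35 genes carried 97 probe sets, and 81 probe sets, from all 35 genes, passed the filter on dim signals. They stand among 18193 named genes in all, of which 11373 passed the same filter. Expression was measured in primary mouse embryonic fibroblasts of the B6 strain (wild type 1 carries no strain label), on 6 Affymetrix arrays, each hybridised with labelled RNA of 1 embryo culture. The 3 genotypes were Cas exon 2+/+ (wild type), Cas exon 2+/∆ (heterozygous for the deletion of exon 2) and Cas exon 2∆/∆ (homozygous), with 2 arrays for each. All embryos came from intercrosses of heterozygotes at 12.5 days post coitum, and the cells were grown from what was left of the embryo once head and inner organs had been removed. They are therefore mixed primary cultures and no clonal line, untreated, in medium with fetal calf serum. The study set the homozygous cells against both other genotypes, and that is the main comparison below.

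Focal adhesions are the sites where integrins, the transmembrane receptors for extracellular matrix, are coupled to actin stress fibres. Talin and kindlin bind integrin tails, vinculin and alpha-actinin tie talin to actin, and a layer of LIM domain proteins and adaptors passes on signals from focal adhesion kinase and Src. Cas (p130Cas, gene symbol Bcar1) is a docking protein of this layer. Its exon 2 encodes the SH3 domain, through which Cas binds focal adhesion kinase, the phosphatase PTP1B (Ptpn1) and the exchange factor encoded by Rapgef1. Many genes of actin linkers are targets of serum response factor (SRF), which binds the CArG box, and of TEAD factors, which bind the hexamer CATTCC.

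Promoter windows from 250 bases before to 50 bases after the transcription start were available for 27 of the 36 genes (RefSeq, GRCm38.p6). They were searched because these genes tended to be high or low in the same arrays, as described below. A CArG box without mismatch, which reads as a CArG box on either strand, was present in windows of 3 of the 27 genes (11.1%), against 1.81% of the 27025 genes with a window. CATTCC, on either strand, was present for 7 of 27 genes (25.9%), against 16.6% of all genes. A gene with several windows counts if any of them matches. Counted by window, the CArG box was in 7.5% of the 40 windows of these genes, against 1.63% of all 32851 windows. CATTCC was in 20.0% of them, against 14.7%. A match describes these letters only and is no evidence of binding. The 3 windows with a CArG box are shown on the strand of the gene. They belong to vinculin at chr14:20929148-20929447 (plus strand), kindlin-2 (Fermt2) at chr14:45530016-45530315 (minus strand) and Trip6 at chr5:137314192-137314491 (minus strand). Capitals mark the CArG box and, in vinculin and Trip6, also the hexamer or its reverse complement.
Vcl: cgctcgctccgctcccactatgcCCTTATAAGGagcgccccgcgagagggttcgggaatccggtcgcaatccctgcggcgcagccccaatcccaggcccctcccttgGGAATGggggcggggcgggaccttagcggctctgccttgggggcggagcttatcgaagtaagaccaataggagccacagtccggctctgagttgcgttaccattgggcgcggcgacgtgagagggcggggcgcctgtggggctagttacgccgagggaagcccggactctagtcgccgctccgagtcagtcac
Fermt2: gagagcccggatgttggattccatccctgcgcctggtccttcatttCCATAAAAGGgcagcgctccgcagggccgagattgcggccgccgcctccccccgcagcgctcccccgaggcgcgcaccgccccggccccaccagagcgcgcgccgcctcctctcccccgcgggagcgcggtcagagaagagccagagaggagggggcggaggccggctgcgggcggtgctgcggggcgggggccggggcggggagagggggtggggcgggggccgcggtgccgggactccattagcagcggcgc
Trip6: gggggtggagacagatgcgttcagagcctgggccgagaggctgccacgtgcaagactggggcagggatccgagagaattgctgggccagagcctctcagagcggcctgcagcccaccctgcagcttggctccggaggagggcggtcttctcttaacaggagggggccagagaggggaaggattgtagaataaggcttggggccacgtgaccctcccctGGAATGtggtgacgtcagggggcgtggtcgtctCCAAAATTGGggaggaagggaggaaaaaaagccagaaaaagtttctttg
The motifs did not overlap each other. The CArG box began 227 bases before the start in Vcl, 204 bases before it in Fermt2 and at base 2 after it in Trip6. Vcl and Fermt2 had their highest level in wild type 1, the highest array for 18 of the 35 genes, whereas Trip6 was highest in heterozygote 1. Their lowest arrays were wild type 2 (Vcl), heterozygote 1 (Fermt2) and heterozygote 2 (Trip6). Homozygote 1, the lowest array for 17 of the 35 genes, was the lowest for none of these 3. Among genes with CATTCC, Actn4 and Lpp were highest in wild type 1 and lowest in homozygote 1, and Evl and Nck1 had the reverse order. A link between the motifs and these levels was not tested.

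All values are log2 intensities after quantile normalization, and differences are on the same log2 scale, which understates changes of dim probe sets. The median deposited intensity lay between 21.9 and 27.3 on the 6 arrays. With 2 embryos for each genotype, the p-values rest on how far cultures of single embryos differ. Bcar1 itself was at 9.37 and 8.42 in the wild-type cells, 8.19 and 8.32 with the heterozygous deletion and 8.08 and 8.43 with the homozygous one. The position of its probe set within the gene was not known, so it does not check the deletion. By Xist and the Y-linked genes Eif2s3y, Uty and Kdm5d, wild type 1 and both heterozygotes had the expression of females, and wild type 2 and both homozygotes that of males, so embryo sex and genotype cannot be told apart between homozygotes and heterozygotes. The defining fibroblast markers Col1a1, Col1a2, Col3a1, Pdgfra, Pdgfrb, Thy1, Vim and Fap all passed the filter.

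In homozygotes against the mean of wild type and heterozygotes, the adhesion and actin linker genes showed small differences with no call. Of the 35 genes, 25 were lower and 10 higher, with a median difference of -0.11 and a range from -0.74 (Pdlim1) to 0.25 (Nck1). Over all 11373 genes tested, 5979 were lower and 5394 higher, with a median of -0.01. Limma with Benjamini-Hochberg adjustment called 0 of the 35 genes, as it called 0% of all probe sets, and at an unadjusted p under 0.05 there were 0 of 35 genes against 2.19% of all genes. Without quantile normalization 29 genes were lower and 6 higher. The direction of the list rested on homozygote 1. Without that array there were 18 lower and 17 higher genes (median -0.0032), whereas without any of the other 5 arrays 23 to 26 genes were lower. Without homozygote 2 the median was -0.31, and Pdlim1 reached an unadjusted p under 0.05 in limma. With a covariate for the level of sex-linked genes there were 16 lower and 19 higher (median 0.08), and 19 genes changed sign. Among those named with array levels below, the sign turned for Tln1 (0.03), Vcl (0.38), Ilk (0.33), Lims2 (0.37), Pdlim1 (0.36), Actn1 (0.43), Actn4 (0.08) and Nck1 (-0.13). It also turned for Fermt2 (0.71), Pdlim5 (0.84), Pdlim7 (0.14), Zyx (0.28), Lpp (0.26), Vasp (0.55) and Enah (0.72), and for Evl, Git2, Arhgef7 and Sorbs3, which became negative.

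The 95% intervals of limma give the size of change that these arrays leave possible in the fit without the sex-linked covariate. The median width to either side was 0.57, and for 33 of the 35 genes the interval lay within a log2 difference of 1 in either direction, which is a change of 2-fold. The exceptions were Pdlim1 (-2.05 to 0.58) and Fermt2 (-1.04 to 0.64). All 35 intervals included 0. They do not allow for embryo sex. With the sex-linked covariate some estimates lay above these intervals. They were those of Fermt2 (0.71, upper bound 0.64), Pdlim5 (0.84, bound 0.76), Enah (0.72, bound 0.71) and Actn1 (0.43, bound 0.41).

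**Figure D1:**
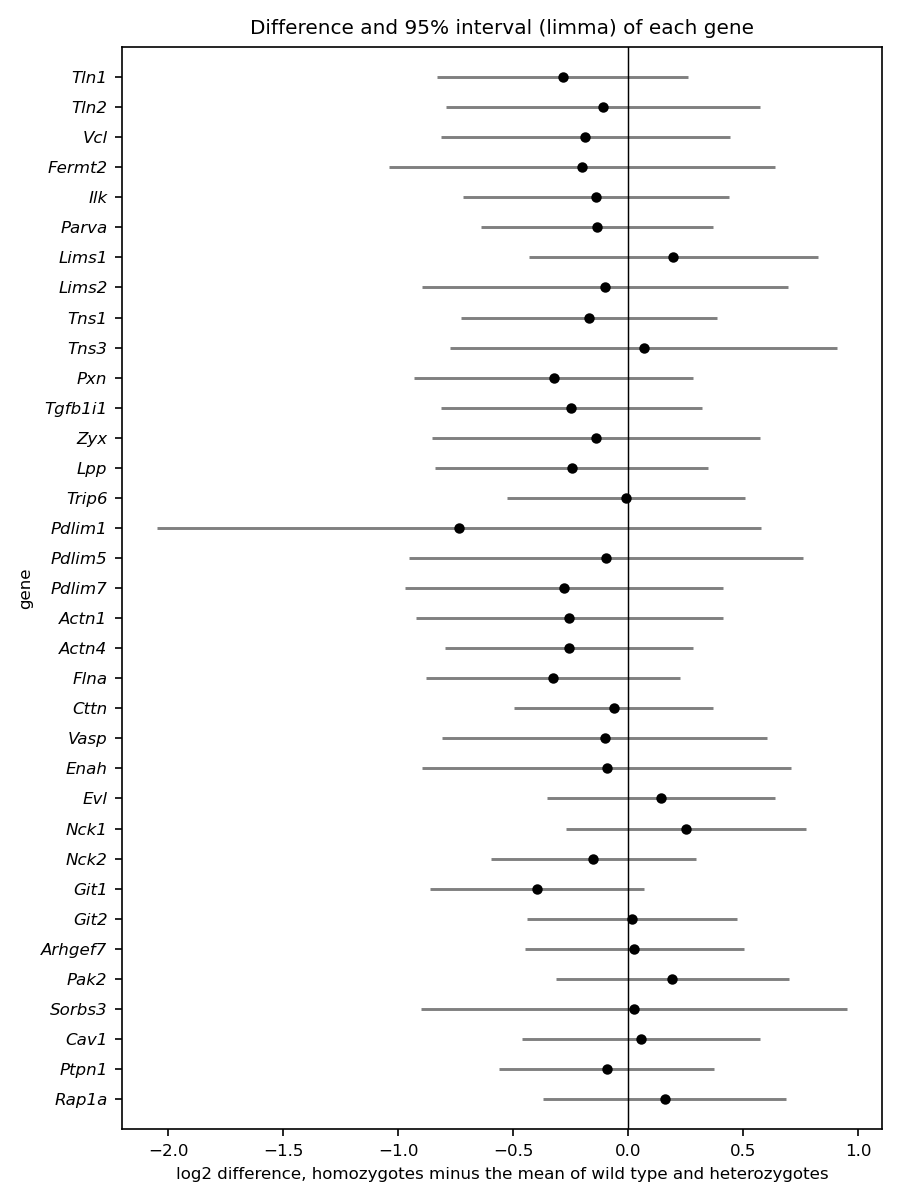
Log2 difference (x axis) of each of the 35 genes (y axis, in the order of their roles), homozygotes minus the mean of wild type and heterozygotes. Points are estimates and lines 95% intervals from limma, and every interval includes 0.

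Among the proteins that couple integrins to actin, talin-1, vinculin, kindlin-2 and talin-2 all had a lower mean in homozygotes, with no call, and with the sex-linked covariate only Tln2 remained lower. Talin-1 (Tln1), which binds integrin tails and stretches under load, was at 10.59 and 10.32 in the wild-type cells, 10.26 and 10.45 with the heterozygous deletion and 9.88 and 10.36 with the homozygous one (difference -0.29, SE 0.23, limma adjusted p = 1). Only homozygote 1 lay below the other arrays, and homozygote 2 lay inside their range. Vinculin (Vcl), which binds stretched talin and actin, was at 12.66 and 12.03 in the wild-type cells, 12.03 and 12.48 with the heterozygous deletion and 12.13 and 12.09 with the homozygous one (difference -0.19, SE 0.26, limma adjusted p = 1). Here wild type 1 and heterozygote 2 were high and the other 4 arrays lay close together. Fermt2, which activates integrins together with talin, ranged from 10.15 in heterozygote 1 to 11.36 in wild type 1 (difference -0.20, SE 0.35). Talin-2 (Tln2) differed by -0.11 (SE 0.28), with its highest level in heterozygote 1 and its lowest in homozygote 1.

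The complex of integrin-linked kinase, PINCH and parvin connects beta-integrin tails to actin. Integrin-linked kinase (Ilk) was at 10.98 and 10.53 in the wild-type cells, 10.24 and 10.44 with the heterozygous deletion and 10.19 and 10.62 with the homozygous one (difference -0.14, SE 0.24). Alpha-parvin (Parva) likewise differed by -0.14 (SE 0.21) and PINCH-1 (Lims1) by 0.20 (SE 0.26). PINCH-2 (Lims2) was at 8.10 and 7.77 in the wild-type cells, 7.05 and 6.90 with the heterozygous deletion and 6.82 and 7.89 with the homozygous one. Both heterozygote arrays thus lay below both wild-type arrays, while the homozygotes spanned more than that gap, so the main difference was only -0.10 (SE 0.33). Of the tensins, which bind integrin tails and actin, Tns1 differed by -0.17 (SE 0.23) and Tns3 by 0.07 (SE 0.35).

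LIM domain proteins of the paxillin and zyxin families sense and relay tension at adhesions. Paxillin (Pxn), the main scaffold for focal adhesion kinase and vinculin, was at 9.87 and 9.90 in the wild-type cells, 9.73 and 9.39 with the heterozygous deletion and 9.07 and 9.72 with the homozygous one (difference -0.33, SE 0.25, limma adjusted p = 1). Both homozygotes lay below both wild-type arrays but overlapped the heterozygotes. The 3 Pxn probe sets gave -0.33, -0.44 and -0.11, and in the one with -0.44 both homozygote arrays (7.28 and 7.69) lay below the other 4. Hic-5 (Tgfb1i1), the closest relative of paxillin, was at 10.50 and 10.38, 10.29 and 10.30, and 9.81 and 10.43 in the same order of genotypes (difference -0.25, SE 0.23), with homozygote 1 alone below the rest. Zyxin (Zyx), which repairs strained stress fibres, differed by -0.14 (SE 0.29), Lpp by -0.25 (SE 0.24) and Trip6 by -0.01 (SE 0.21). The second Zyx probe set gave -0.59, and the mean of the Zyx probe sets differed by -0.36.

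The PDZ and LIM proteins, which sit on alpha-actinin along stress fibres, varied most. Pdlim1 was at 10.96 and 10.07 in the wild-type cells, 9.43 and 9.23 with the heterozygous deletion and 8.24 and 10.13 with the homozygous one. The homozygotes were 1.89 log2 units apart, with 1 at the bottom of all 6 arrays and the other above both heterozygotes, so the main difference of -0.74 (SE 0.54, limma adjusted p = 1) was smaller than the spread within the genotype. It was -1.68 without homozygote 2 and 0.21 without homozygote 1. Pdlim7 differed by -0.28 (SE 0.29), and its 3 probe sets gave -0.28, -0.22 and -0.37. Pdlim5 differed by -0.10 (SE 0.35).

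Actin crosslinkers shared a low homozygote 1. Alpha-actinin-1 (Actn1) was at 12.64 and 11.96 in the wild-type cells, 11.72 and 11.99 with the heterozygous deletion and 11.59 and 12.05 with the homozygous one (difference -0.26, SE 0.28). Alpha-actinin-4 (Actn4) was at 12.02 and 11.73, 11.72 and 11.70, and 11.30 and 11.77 in the same order (difference -0.26, SE 0.22). Filamin A (Flna), which crosslinks cortical actin and binds integrins, was at 11.99 and 11.84, 11.79 and 12.02, and 11.33 and 11.85 (difference -0.33, SE 0.23, limma adjusted p = 1). In each of these 3 genes homozygote 1 was the lowest array and homozygote 2 lay within the range of the others. Without homozygote 1 the differences were -0.03 for Actn1, -0.02 for Actn4 and -0.07 for Flna. Cortactin (Cttn), which stabilises branched actin, had the narrowest span of all 35 genes (0.11 between its highest and lowest array) and differed by -0.06 (SE 0.18). Of the Ena and VASP family, which extends actin filaments, Vasp differed by -0.10 (SE 0.29), Enah by -0.09 (SE 0.33) and Evl by 0.14 (SE 0.20).

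Adaptors and regulators of Rac and Cdc42 had 5 genes higher and 2 lower in homozygotes, with a median of 0.03 and no call. Git1, a scaffold that brings the exchange factor Arhgef7 and PAK kinases to paxillin, had the smallest unadjusted p of the 35 genes. It was at 7.18 and 7.005 in the wild-type cells, 6.98 and 6.92 with the heterozygous deletion and 6.50 and 6.75 with the homozygous one, 1.32-fold lower than the other genotypes together (difference -0.40, SE 0.19, limma adjusted p = 1). Both homozygote arrays lay below the other 4, and with any single array left out the difference stayed between -0.52 and -0.27. With the sex-linked covariate it was -0.20. Git1 was the only gene of the 35 whose main difference exceeded the gap between the arrays within each of the 3 genotypes.

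The SH2 and SH3 adaptor Nck1, which recruits actin regulators to phosphorylated Cas and other docking proteins, was at 7.64 and 8.05 in the wild-type cells, 8.26 and 7.97 with the heterozygous deletion and 8.29 and 8.17 with the homozygous one (difference 0.25, SE 0.22). The homozygotes lay above wild type and overlapped the heterozygotes. The second Nck1 probe set gave 0.49. The kinase Pak2 was at 8.30 and 8.02, 7.92 and 8.28, and 8.31 and 8.33 (difference 0.19, SE 0.21), with both homozygotes just above the other 4 arrays, whereas its second probe set gave -0.35. Nck2 differed by -0.15 (SE 0.18), with both homozygotes (8.12 and 7.99) below the other 4. Git2 differed by 0.02 (SE 0.19), Arhgef7 by 0.03 (SE 0.20) and the vinexin gene Sorbs3 by 0.03 (SE 0.38).

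Of the membrane, phosphatase and GTPase members, Ptpn1, whose product binds the SH3 domain that exon 2 encodes and dephosphorylates Cas, was at 9.27 and 9.36 in the wild-type cells, 9.32 and 9.26 with the heterozygous deletion and 9.36 and 9.06 with the homozygous one. The difference was -0.09 (SE 0.19, 95% interval -0.56 to 0.37), and homozygote 1 was level with the highest of the other arrays. Caveolin-1 (Cav1), the coat protein of caveolae, differed by 0.06 (SE 0.21) and Rap1a, a GTPase that activates talin, by 0.16 (SE 0.22).

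**Figure D2:**
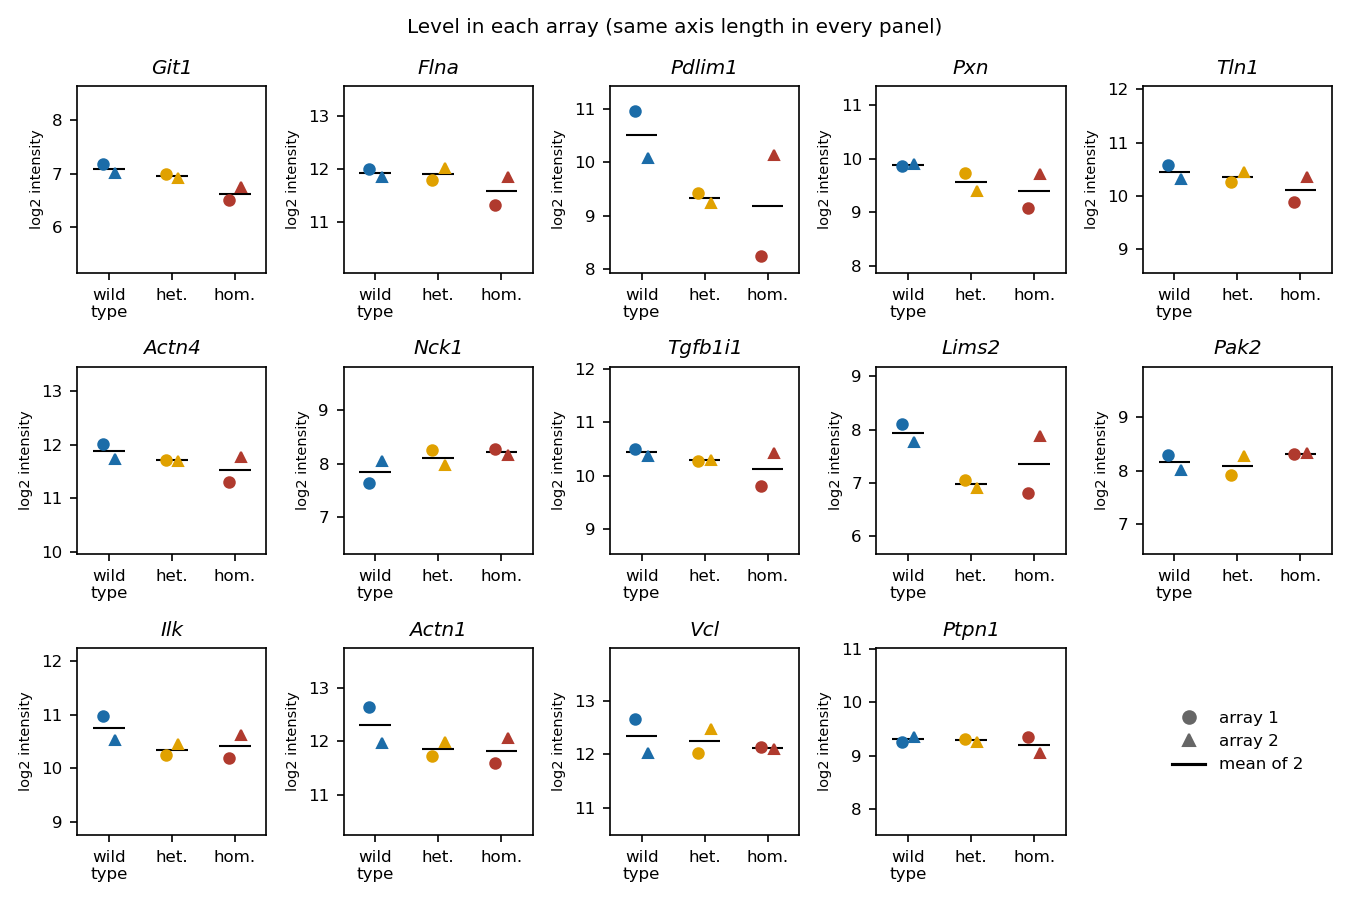
Log2 intensity (y axis) of 14 adhesion and actin linker genes in each array, by genotype (x axis; het., heterozygous; hom., homozygous); circles are array 1, triangles array 2 and bars the mean of the 2. The axis covers the same number of log2 units in every panel, so the gap between the homozygote arrays of Pdlim1 can be set against the narrow spread of Ptpn1.

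Probe sets of a gene gave opposite signs in the main comparison for 9 of the 23 genes with several probe sets above the filter. In order of falling signal, Tln1 gave -0.29 and 0.07, Pak2 0.19 and -0.35, Fermt2 -0.20, -0.19 and 0.03, Evl 0.14, -0.07 and 0.03, and Git2 0.02, -0.08 and 0.01. Cttn gave -0.06, -0.12, -0.09 and 0.05, and Enah -0.09, -0.06, -0.38 and 0.62. The 0.62 came from the dimmest of the 4 Enah probe sets, in which both homozygotes (5.82 and 5.80) lay above the other arrays. Pdlim5 gave -0.10, -0.13, -0.20, -0.37, -0.09, 0.14 and -0.22, and Lpp -0.25, -0.06, -0.20, -0.06, -0.52, -0.03, -0.08 and 0.44. The probe sets of the other 14 genes had the same sign, among them all 3 of Actn1 (-0.26, -0.54 and -0.56). In all, 58 of the 81 probe sets were lower and 23 higher.

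The clearest order among the 35 genes ran along single arrays. Wild type 1 was the highest array for 18 genes (51.4%), against 24.4% of all genes tested, and homozygote 1 was the lowest for 17 (48.6%), against 24.3%. Both held for 12 genes (34.3%), against 8.06% of all genes. These 12 were Tln1, Ilk, Lims2, Tgfb1i1, Zyx, Lpp, Pdlim1, Pdlim7, Actn1, Actn4, Cttn and Git1. The opposite order was seen for Evl and Nck1, with their lowest level in wild type 1 and their highest in homozygote 1. These shares are a description, since the genes of one adhesion structure are not independent of each other.

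Relative to the mean of the 6 arrays, the median level of the 35 genes was 0.22 and 0.01 in the wild-type cells, -0.05 and 0.03 with the heterozygous deletion and -0.24 and 0.05 with the homozygous one. Homozygote 2 thus lay above wild type 2. Arrays of a genotype differed in these genes by a median of 0.32 (wild type), 0.20 (heterozygous) and 0.31 (homozygous), against 0.32, 0.27 and 0.32 over all genes. The span from the lowest to the highest array had a median of 0.69, against 0.72 over all genes. Spans ranged from 0.11 in Cttn to 2.72 in Pdlim1.

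**Figure D3:**
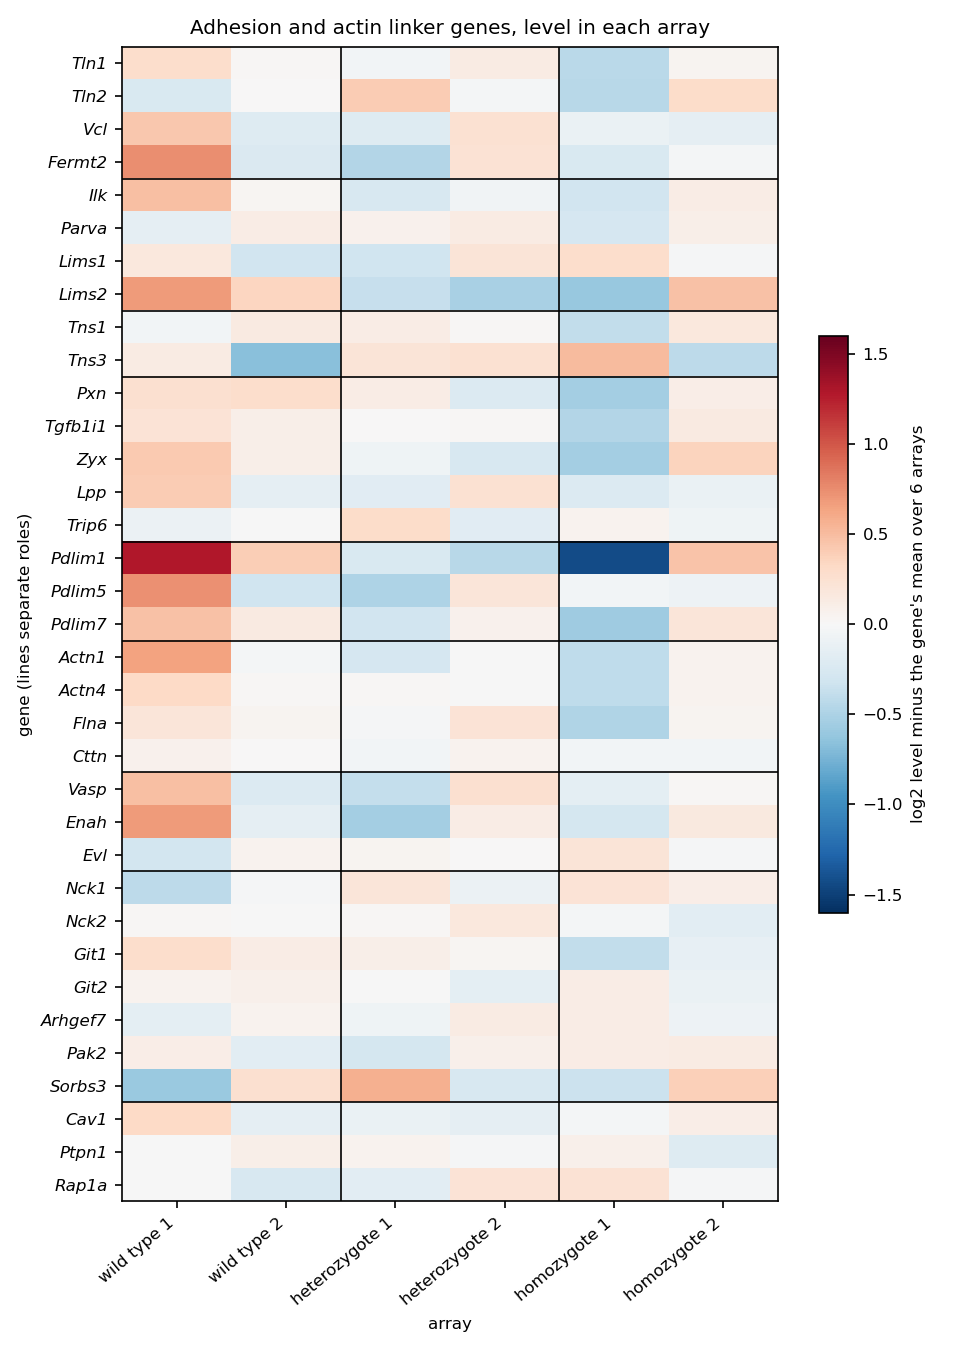
Level of each of the 35 genes (rows, grouped by role) in each array (columns), as log2 intensity minus the mean of the gene over 6 arrays; red is above and blue below that mean. The column of wild type 1 is mostly red and that of homozygote 1 mostly blue, whereas homozygote 2 resembles neither.

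**Figure D4:**
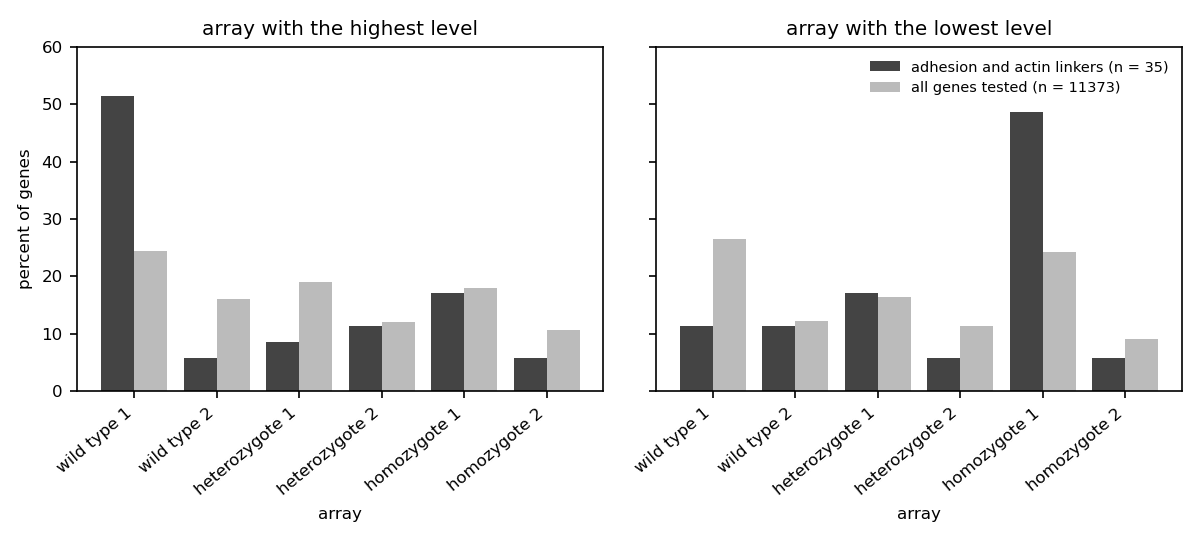
Percent of genes (y axis) whose highest (left) or lowest (right) level was in each array (x axis), for the 35 adhesion and actin linker genes (dark) and all 11373 genes tested (light). Wild type 1 was the highest array for 51.4% of the 35 genes and homozygote 1 the lowest for 48.6%.

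Separate groups were rare in the main comparison. Both homozygotes lay below the other 4 arrays for 2 of 35 genes, Git1 and Nck2, against 3.61% of all genes, and above them for Pak2 alone, against 3.16%. Counts of this size lie near the background.

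Against wild type alone, 25 of 35 genes were lower in homozygotes, with a median of -0.20. Limma called 0 genes (0% of all probe sets), with 0 of 35 at an unadjusted p under 0.05 against 3.28% of all genes. Without homozygote 2 that count was 5 (Lims2, Pxn, Zyx, Pdlim1 and Pdlim7, all lower), with 0 called. Pdlim1 was 2.51-fold lower (difference -1.33, SE 0.63, limma adjusted p = 0.973), although homozygote 2 overlapped wild type. Pxn differed by -0.49 (SE 0.29), Git1 by -0.46 (SE 0.22) and Nck1 by 0.38 (SE 0.25). The homozygotes lay wholly below wild type for Pxn, Cttn, Nck2 and Git1 (4 genes, against 14.3% of all genes) and wholly above it for Nck1 and Pak2 (2 genes, against 12.5%). Without wild type 2 the median of the 35 genes was -0.38, and without wild type 1 it was -0.08.

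Against heterozygotes, 23 of 35 genes were lower in homozygotes and the median was -0.06, with 0 genes called by limma (0% of all probe sets) and 0 at an unadjusted p under 0.05 (1.94% of all genes). The examples with the smallest p were Git1 (-0.33, SE 0.22), Flna (-0.32, SE 0.26), Lims2 (0.38, SE 0.38) and Pak2 (0.22, SE 0.24), each with limma adjusted p = 1. The arrays did not overlap for Nck2 and Git1, which were lower (2 genes, against 12.4% of all genes), and for Pak2 and Cav1, which were higher (2 genes, against 10.5%). Without quantile normalization 29 genes were lower, and with median centring 19. The median was 0.06 without homozygote 1, with 21 genes higher, and 0.31 with the sex-linked covariate.

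Heterozygotes against wild type gave the 1 gene that reached an unadjusted p under 0.05, Lims2, against 4.33% of all genes. It was 0.95 lower in heterozygotes (difference -0.95, SE 0.38, limma adjusted p = 0.838) and was not called, and limma called 0% of all probe sets. Lims2 did not reach that unadjusted p without quantile normalization, with no intensity filter, with the replicate block, or without any single one of the wild-type or heterozygote arrays. With the sex-linked covariate it did not either, and 5 other genes did (Fermt2, Pdlim1, Pdlim5, Actn1 and Enah, all lower in heterozygotes), with 0 called. Pdlim1 differed by -1.19 (SE 0.63), Ilk by -0.41 (SE 0.28) and Actn1 by -0.44 (SE 0.32). In total 23 of 35 genes were lower, with a median of -0.10, and with median centring 27 were. Both heterozygotes lay below both wild-type arrays for 10 genes, against 18.4% of all genes, and above them for Tns3 alone, against 17.6%. The 10 genes were Ilk, Lims2, Pxn, Tgfb1i1, Zyx, Pdlim1, Pdlim7, Actn4, Git1 and Git2. Without wild type 1 the list was split evenly, with 18 genes lower and 17 higher (median -0.02).

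Other genes of the adhesion pathway were tested in the same fit, and limma called 0 of them in the main comparison. Of 13 integrin subunits 8 were lower and 5 higher (median -0.10), and the smallest p-values belonged to the fibronectin receptor subunit Itga5 (-0.55, SE 0.41) and Itga7 (-0.26, SE 0.30). Of 18 genes of Cas docking and adhesion kinases 7 were lower and 11 higher (median 0.01). Rapgef1, whose product binds the Cas SH3 domain and activates Rap1, was at 8.14 and 7.81 in the wild-type cells, 7.59 and 7.96 with the heterozygous deletion and 7.24 and 7.50 with the homozygous one (difference -0.50, SE 0.22, limma adjusted p = 1). Both homozygotes lay below the other arrays, as in Git1. That held for 1 of the 18 genes, against 3.61% of all genes, and the reverse for 1, against 3.16%. Elmo1, a partner of the Rac activator Dock1, differed by 0.21 (SE 0.20).

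Of 26 further adhesion and actin linkers 17 were lower and 9 higher (median -0.07). Fhl1, a four-and-a-half LIM domain protein of muscle, was the 1 gene of 26 with an unadjusted limma p under 0.05 (-0.81, SE 0.30). Over all genes that share was 2.19%. Palladin (Palld), a stress fibre scaffold, differed by -0.43 (SE 0.26). Of 18 actins and stress fibre partners 13 were lower and 5 higher (median -0.07), led by profilin-1 (Pfn1, -0.28, SE 0.18) and tropomyosin Tpm2 (-0.28, SE 0.28). Like the adhesion genes, the actin list had its highest median in wild type 1 and its lowest in homozygote 1. The medians were 0.26 and 0.01 in the wild-type cells, -0.13 and -0.02 with the heterozygous deletion and -0.16 and 0.07 with the homozygous one. The order of genotypes differed in part. Of the 18 genes 16 were lower in heterozygotes than in wild type, against 49.8% of all genes. In homozygotes against heterozygotes 10 of the 18 were higher (47.0% of all genes), whereas 23 of the 35 adhesion genes were lower.

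Markers of other cells also differed between the arrays, but not all in the same order. Smooth muscle markers (8 of 8 passed the filter, some of which fibroblasts also express) had a summed normalised intensity of 26080 and 23080 in the wild-type cells, 19520 and 20890 with the heterozygous deletion and 16950 and 24730 with the homozygous one. In the main comparison 6 of these 8 markers were lower and 2 higher (median -0.13). Cnn1, a calponin of contractile cells, was singled out after the values were seen. It was at 10.96 and 9.95, 8.67 and 9.22, and 7.45 and 10.64, an order close to that of Pdlim1. Of 9 skeletal muscle markers Acta1 alone passed, at 11.54 and 9.07, 7.46 and 8.34, and 6.65 and 9.81, while the defining Myod1, Myog, Myf5 and Ckm lay below the filter. The median level of the 8 smooth muscle markers was highest in wild type 1 (0.50) and lowest in heterozygote 1 (-0.56), below homozygote 1 (-0.32). Of these markers 7 were lower in heterozygotes than in wild type, and 5 were higher in homozygotes than in heterozygotes, an order that differs from that of the adhesion genes.

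Macrophage markers had their lowest median level in wild type 1 and their highest in homozygote 1, the reverse of the adhesion genes. In wild type 2, heterozygote 1 and homozygote 2 the medians of both lists had the same sign. Of 14 macrophage markers with a probe set, 13 passed (Itgam did not), among them the defining Adgre1, Csf1r and Cd68. In the main comparison all 13 were higher, against 47.4% of all genes, with a median of 1.24. Of them 8 had an unadjusted p under 0.05 in limma, against 2.19% of all genes, and 0 were called. Against wild type alone 3 of the 13 had such a p, against 3.28% of all genes. Each summed intensity runs over all markers of a list with a probe set, also those below the filter. For macrophage markers it was 3087 and 7023 in the wild-type cells, 5614 and 4984 with the heterozygous deletion and 16420 and 7227 with the homozygous one. Fibroblast markers summed to 36190 in wild type 1 and between 48210 and 55470 in the other arrays. Neural and glial markers (of 9, 7 had a probe set and 5 passed) summed to 1414 to 2298 in wild type and heterozygotes. In homozygotes they summed to 503.6 and 509.2. In the main comparison all 5 that passed were lower, against 52.6% of all genes, and 0 were called. Of them 2 had an unadjusted p under 0.05 in limma, against 2.19% of all genes. For 2 of the 5 both homozygotes lay below the other arrays, against 3.61% of all genes. Endothelial markers (4 of 8 passed) summed to 148.5 to 300.5, epithelial markers (4 of 7) to 229.3 to 692.1 and platelet markers (5 of 7) to 775.3 to 1180 over the 6 arrays. In bulk RNA, fewer cells of a type and less RNA per cell cannot be told apart, and the part of these cell types in the levels of the adhesion genes was not tested.

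**Figure D5:**
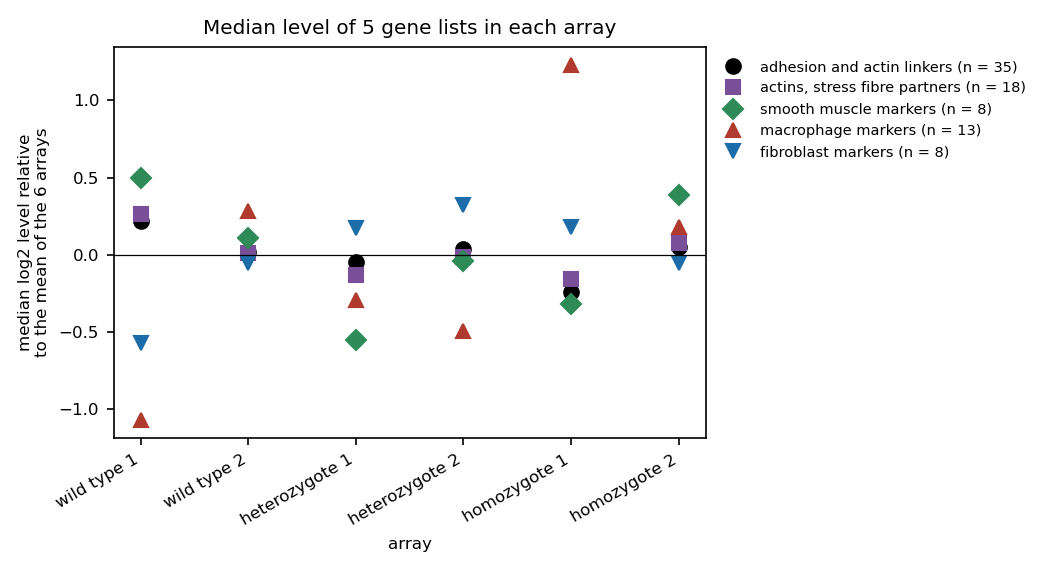
Median log2 level of 5 gene lists (colours and symbols) in each array (x axis), relative to the mean of the 6 arrays (y axis). The adhesion and actin linkers, the actins and the smooth muscle markers are above 0 in wild type 1 and below it in homozygote 1, where the macrophage markers lie at -1.07 and 1.23.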

How the data were processed

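The deposited table, the authors' series matrix, held linear intensity values of 45101 probe sets on 6 arrays. No source used here gives the scanner software, the summary method or the scaling. Per the labels' protocols, biotinylated cRNA was made from 2 µg of total RNA. Intensities were converted to log2(intensity + 1.78), the pseudocount being the 10th percentile of all values, and quantile normalized, because array medians spanned 0.29 log2 units. The 64 control probe sets were removed and the upper 50% by mean, 22519 probe sets, were tested with limma 3.58.1 in R 4.3.3 (lmFit, eBayes, a mean for each genotype, Benjamini-Hochberg adjustment, threshold 0.05), which was tested on simulated data.

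Symbols came from the platform annotation, updated through Entrez identifiers with the GRCm38.p6 table. Each gene was represented by its brightest probe set. The genes and lists were chosen with earlier results of these data known. All genes of the list are named, with array levels for the 8 with the smallest p in the main comparison, 4 in each other comparison, and Vcl, Tln1, Pxn and Ptpn1. Of other lists the 2 genes with the smallest p are named, and probe sets of opposite sign are given one by one. Pdlim1, Cnn1 and Acta1 were set side by side after their values were seen. Alternatives were other normalizations, no filter, a pseudocount of 16, the replicate number as a block, a sex-linked covariate, averaged probe sets, and each array left out. Errors are SE of limma.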

Additional observations from a re-analysis of the deposited data

How the results depend on the processing

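No gene of the list was called in any of the 4 comparisons under any alternative run. Without quantile normalization, with median centring, with no intensity filter and with a pseudocount of 16, limma called 0 probe sets in each comparison, and the median of the 35 genes in the main comparison stayed between -0.20 and -0.10. With the replicate block the median was -0.11 and 0 probe sets were called. Deviations of arrays with the same number correlated at -0.36, -0.14 and -0.14. There were 2 arrays for each genotype, and those of wild type also differed in embryo sex. These values therefore cannot decide whether the numbers pair the cultures. With averaged probe sets the median was -0.11. The sex-linked covariate moved the median to 0.081 in the main comparison, 0.31 against heterozygotes and -0.32 for heterozygotes against wild type, where 1 probe set (Egfl6) was called, and 19 of 35 genes changed sign in the main comparison. Only wild type 1 and 2 separate this covariate from genotype, since both heterozygotes lie on one side of it and both homozygotes on the other. The cause was not tested. With any single array left out, the main median lay between -0.31 and -0.0032 and that against wild type between -0.38 and -0.078. Probe sets called then numbered 0 to 2 in the main comparison, 0 to 2 against heterozygotes and 0 to 1 for heterozygotes against wild type, namely Eif2s3y and a probe set with no symbol. Without homozygote 1, 13 of 35 genes changed sign. The number of arrays, 2 for each genotype, limits the precision, and levels of different genes were not compared.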

Other observations

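Of the 97 probe sets of the adhesion and actin linker genes, 16 lay below the intensity filter and were not tested. In a dim talin-2 (Tln2) probe set the log2 intensity was 2.08 and 1.73 in the wild-type cells, 2.58 and 2.16 with the heterozygous deletion and 3.37 and 4.21 with the homozygous one, so that both homozygotes lay above the other 4 arrays. The brighter Tln2 probe sets did not have this order, with differences of -0.11 and -0.13. A dim PINCH-1 (Lims1) probe set was at 3.64 and 3.34, 3.97 and 4.14, and 4.35 and 4.68 in the same order of genotypes, again with the homozygotes on top. In the 3 Lims1 probe sets that passed the filter the homozygotes overlapped the other arrays, with differences of 0.20, 0.27 and 0.22. The other dim Lims1 probe set overlapped too. The dim Tln2 and Lims1 probe sets with this order were singled out after their values were seen. How often dim probe sets have such an order was not determined.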
